A study of Mus musculus with 12 samples.

Results

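Transcripts of 8 genes of the Akt and mTOR pathway were followed in C2C12 cells with and without silencing of Bach1. The genes were Pik3r1, Pik3ca, Akt1, Akt2, Mtor, Rptor, Rictor and Eif4ebp1, and their members on the array were all probes that carried 1 of these gene symbols in the deposited probe table. There were 21 such probes among the 56605 probes of the array that were not controls, and 8 genes among 27306 gene symbols. Of the 21 probes, 16 were among the 29664 probes tested across the array, and these 16 were well above background on all 12 arrays. The other 5 probes, 2 of Rptor and 3 of Rictor, were well above background on no array or on at most 2 arrays of any condition and received no test. All 8 genes kept at least 1 tested probe, and Pik3r1, Pik3ca and Eif4ebp1 were each measured by a single probe.

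C2C12 is an immortalized myoblast line from the muscle of C3H mice, which fuses into myotubes when confluent cells are moved to medium with little serum. Cells had been transfected either with a control siRNA (siControl) or with 1 siRNA against Bach1 (siBach1-2, written siBach1 in the sample labels), so that every sample carried an siRNA. RNA was taken at day 0, before differentiation was induced, or at day 2 after the change to horse serum medium. This gave 4 conditions with 3 one-colour arrays each. As all samples came from this line and this siRNA, an effect of silencing here is that of 1 siRNA in 1 line.

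Class I PI3K is a heterodimer of a regulatory subunit, such as p85 alpha from Pik3r1, and a catalytic subunit, such as p110 alpha from Pik3ca, and makes the membrane lipid that recruits Akt kinases. Akt1 and Akt2 are the Akt kinases best known in muscle, Akt1 for growth and Akt2 for insulin-stimulated glucose uptake. Akt signalling activates the mTOR kinase within complex 1 (mTORC1), which contains raptor (Rptor), while mTOR complex 2 (mTORC2), which contains rictor (Rictor), phosphorylates Akt itself. mTORC1 phosphorylates 4E-BP1 (Eif4ebp1), a repressor of cap-dependent translation, and thereby releases the cap-binding protein eIF4E. The arrays measured transcripts only, not the phosphorylation through which these proteins act.

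The promoters of Akt2, Pik3ca and Rptor, whose reference probes rose together with differentiation, are shown beside that of Akt1, whose reference probe did not pass the test. RefSeq promoters on GRCm38.p6 were matched for 7 of the 8 genes, and the 250 bases before the outermost annotated start are given 5′ to 3′ on the strand of the gene. Capitals mark E-boxes (CANNTG, the motif that MyoD and myogenin bind) and TGANTCA, a core shared by sites of AP-1 and of the Maf heterodimers in which Bach1 takes part, each searched on both strands, and no match shown overlaps another. The Akt1 sequence is the minus strand of chr12:112674885-112675134.
Akt1: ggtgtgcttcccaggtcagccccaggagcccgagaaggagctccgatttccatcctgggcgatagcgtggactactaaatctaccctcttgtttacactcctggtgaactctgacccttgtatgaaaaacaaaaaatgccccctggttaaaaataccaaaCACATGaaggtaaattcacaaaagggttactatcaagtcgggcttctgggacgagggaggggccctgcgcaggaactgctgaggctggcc
The Akt2 sequence is the plus strand of chr7:27591302-27591551.
Akt2: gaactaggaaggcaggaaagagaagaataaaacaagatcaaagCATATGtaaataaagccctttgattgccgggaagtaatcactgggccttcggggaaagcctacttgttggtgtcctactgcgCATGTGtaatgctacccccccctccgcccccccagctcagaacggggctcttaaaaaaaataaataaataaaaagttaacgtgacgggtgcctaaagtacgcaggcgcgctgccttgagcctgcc
The Pik3ca sequence is the plus strand of chr3:32396815-32397064.
Pik3ca: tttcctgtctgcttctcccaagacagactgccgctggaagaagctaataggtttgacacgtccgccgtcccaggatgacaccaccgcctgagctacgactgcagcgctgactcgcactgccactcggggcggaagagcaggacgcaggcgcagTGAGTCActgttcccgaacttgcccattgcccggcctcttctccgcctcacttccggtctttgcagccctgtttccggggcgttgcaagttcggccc
The Rptor sequence is the plus strand of chr11:119602655-119602904.
Rptor: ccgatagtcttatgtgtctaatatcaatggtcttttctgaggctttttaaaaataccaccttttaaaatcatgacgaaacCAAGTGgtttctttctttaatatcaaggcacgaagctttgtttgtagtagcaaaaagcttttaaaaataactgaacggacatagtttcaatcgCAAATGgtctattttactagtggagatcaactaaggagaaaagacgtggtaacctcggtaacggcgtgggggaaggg
Akt2 and Rptor held 2 E-boxes each, Akt1 held 1, and Pik3ca held none, while the windows of Pik3r1, Mtor and Rictor held none of the motifs searched. An E-box lay in 66.2% of all promoter windows of this length, so its presence is common. The TGANTCA match of Pik3ca, found in 6.75% of windows, ended 90 bases before the start. No member window matched the core of the antioxidant response element, TGACNNNGC, against 10.2% of windows. These matches describe letters and do not show that a factor bound.

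All values below are log2 signals relative to the 75th percentile of their array, so that 0 is that percentile and a difference of 1 is a change of 2-fold. Levels are comparable between arrays for the same probe, not between probes. From 47.6% to 58.8% of probes were well above background per array. Bach1 itself was lower in siBach1-2 than in siControl, by -1.77 at day 0 and -1.97 at day 2 (limma adjusted p = 1.2e-05 and 1.4e-05), with no overlap of arrays. Of the myoblast markers 5 of 6 were detected, and all 8 markers of differentiated muscle were detected. The summed linear level of the latter lay between 1879 and 2033 times the 75th percentile in siControl at day 2 and between 1233 and 1476 in siBach1-2 at day 2, against 65.9 to 95.9 at day 0. The differentiated muscle markers thus moved with day and, at day 2, with silencing, and their part in the results on Akt and mTOR genes was not tested. Fewer differentiated cells and less transcript per cell cannot be told apart in these bulk samples. Of the markers of other cells, 2 of 5 for adipocytes and 4 of 5 for osteoblasts were detected. So were 1 of 5 for endothelium and 4 of 5 for macrophages and blood cells. Ptprc, Cd68, Csf1r and Itgam of the macrophage and blood list were well above background on all 12 arrays. The same held for Lep of the adipocyte list and for Sp7 and Phex of the osteoblast list. Adipoq, Cfd, Cdh5, Kdr, Tek, Emcn and Adgre1 were well above background on no array. The summed macrophage and blood level was 17.1 to 20.7 in siControl at day 0, 17.9 to 20.2 in siBach1-2 at day 0, 25.3 to 33.6 in siControl at day 2 and 20.9 to 32.2 in siBach1-2 at day 2, and the sums of the adipocyte, osteoblast and endothelial lists stayed between 0.0936 and 2.11. A call means a limma adjusted p under 0.05 over all 29664 probes, in the fit without a block unless another setting is named. A reference probe is the tested probe of a gene with the highest mean signal.

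Differentiation called 43.8% of the 16 member probes in siControl and 56.2% in siBach1-2, against 53.4% and 56.1% of all tested probes, and silencing called 6.25% at day 0 and 12.5% at day 2, against 17.1% and 12%. In siControl cells Akt2, Pik3ca and Rptor rose from day 0 to day 2, to 2.42-fold, 2.27-fold and 1.60-fold of day 0, and Rictor rose 1.22-fold. In siBach1-2 cells the same reference probes and that of Mtor were called higher at day 2. Silencing called 1 member probe at day 0, Rptor, which was higher. At day 2 it called 2, the reference probe of Mtor, which was higher, and Eif4ebp1, which was lower. The second Mtor probe had the opposite sign at day 2 (-0.24, limma adjusted p = 0.25). The Mtor call was lost in 8 of the 12 fits that left out 1 array, that of Rptor in 5 and that of Eif4ebp1 in 2. Each of these silencing effects was below 2-fold, and no member passed the test for a difference of the silencing effect between days.

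**Figure D1:**
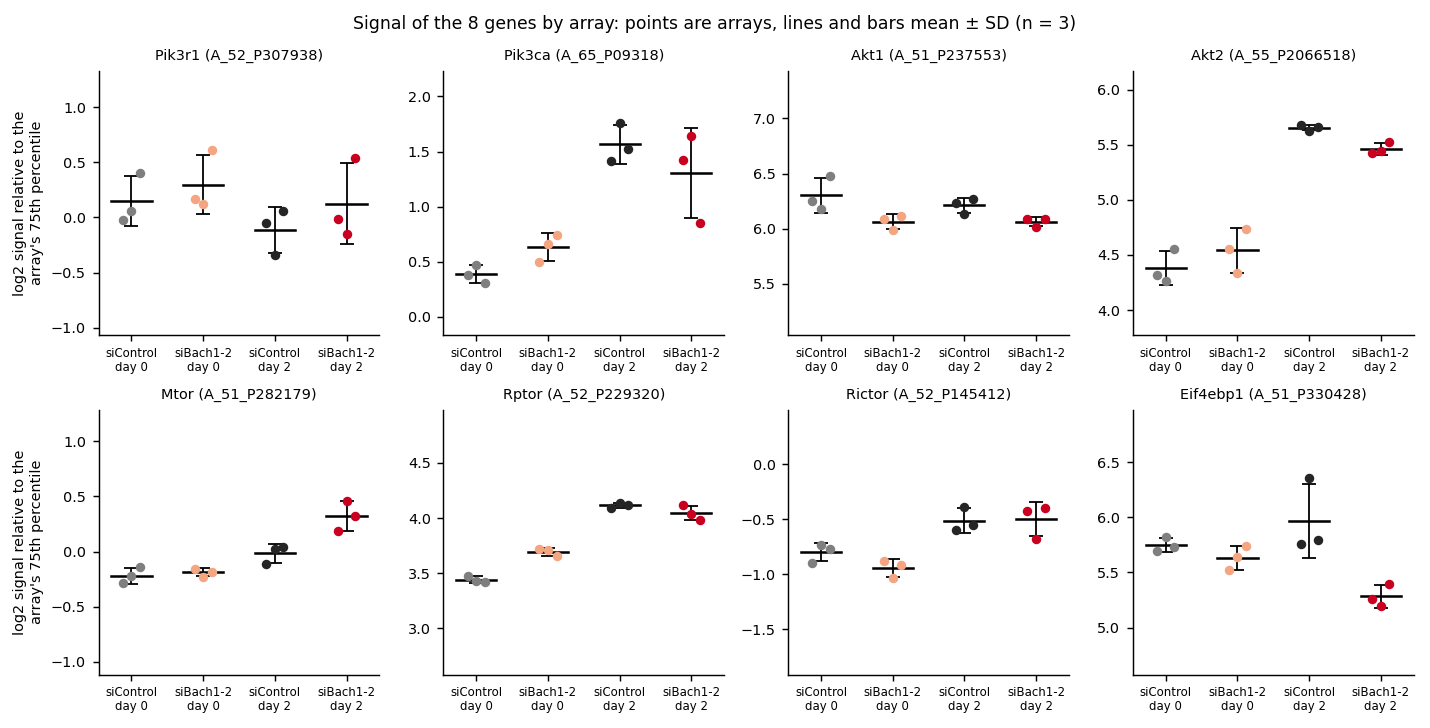
Signal in log2 units from the 75th percentile of each array (vertical axis) in the 4 conditions (horizontal axis) for the reference probe of each of the 8 genes. Points are arrays and bars the mean ± SD of 3 arrays, and every panel spans the same height in log2 units. Akt2, Pik3ca and Rptor were higher on every day 2 array than on any day 0 array, and Eif4ebp1 was lower on the 3 siBach1-2 arrays of day 2 than on every siControl array.

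The regulatory subunit gene Pik3r1 showed no called change in any comparison. Its signals were -0.02, 0.05 and 0.41 in siControl at day 0 and 0.17, 0.12 and 0.61 in siBach1-2 at day 0. At day 2 they were -0.05, -0.35 and 0.06 in siControl and -0.02, -0.15 and 0.54 in siBach1-2. Replicate 3, which lay on another slide than replicates 1 and 2, was the highest array of each condition, and the arrays overlapped in each comparison by siRNA or by day. The largest difference between conditions in 1 comparison was the lower level at day 2 than at day 0 in siControl, -0.26 ± 0.21 (SE, adjusted p = 0.32), which passed the threshold with the replicate number as a block (adjusted p = 0.046). The silencing effects were 0.15 at day 0, with a 95% interval from -0.31 to 0.61, and 0.24 at day 2, with an interval from -0.22 to 0.70.

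Pik3ca, which encodes the catalytic subunit p110 alpha, rose with differentiation. Its signals in siControl were 0.38, 0.47 and 0.31 at day 0 and 1.41, 1.76 and 1.52 at day 2. All day 2 arrays were above all day 0 arrays, with a difference of 1.18 ± 0.18 (SE, adjusted p = 0.00026). In siBach1-2 cells they were 0.50, 0.66 and 0.75 at day 0 and 1.43, 1.64 and 0.85 at day 2. These arrays did not overlap either, but the third day 2 array stood only just above day 0. The difference of 0.67 ± 0.18 (adjusted p = 0.0087) was 0.95 on the slide of replicates 1 and 2 and 0.11 on the slide of replicate 3. The order of means was siControl day 0, siBach1-2 day 0, siBach1-2 day 2 and siControl day 2, and the neighbours within each day were not called different. At day 0 the 3 siBach1-2 arrays lay above the 3 siControl arrays by 0.25 on average (adjusted p = 0.39), and at day 2 the arrays overlapped, with a difference of -0.26 (adjusted p = 0.4). The rise with differentiation was smaller by 0.51 in siBach1-2 cells, with a 95% interval from -1.07 to 0.06 (adjusted p = 0.28).

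Akt1 was measured by 3 tested probes. The reference probe, A_51_P237553, matches the RefSeq transcript NM_009652 and read 6.25, 6.18 and 6.48 in siControl and 6.09, 5.99 and 6.12 in siBach1-2 at day 0. At day 2 it read 6.23, 6.14 and 6.27 in siControl and 6.09, 6.02 and 6.08 in siBach1-2. On each day the siBach1-2 arrays were below the siControl arrays without overlap, but neither difference was called, -0.24 ± 0.09 at day 0 (adjusted p = 0.11) and -0.15 ± 0.09 at day 2 (adjusted p = 0.33). With the replicate number as a block the day 0 difference passed (adjusted p = 0.032), as it did after quantile normalization (adjusted p = 0.021), while the day 2 difference turned to 0.02 after quantile normalization. The change with day was -0.09 in siControl (adjusted p = 0.44) and -0.00 in siBach1-2 (adjusted p = 0.99), and quantile normalization made the latter a called rise of 0.36 (adjusted p = 0.0051).

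The second Akt1 probe, A_52_P418014, for the same transcript, ranged from 0.52 to 1.09 over the 12 arrays and was called in no comparison. The third, A_66_P107415, which has no accession in the deposited table, behaved differently from the other two. It read -0.32, -0.45 and -0.34 in siControl and -0.18, -0.18 and -0.35 in siBach1-2 at day 0. At day 2 it read -0.00, 0.26 and -0.26 in siControl and 0.64, 0.78 and 0.16 in siBach1-2. The siBach1-2 arrays of day 2 were thus above all arrays of day 0, a rise of 0.76 ± 0.17 (adjusted p = 0.0027). The difference of siBach1-2 from siControl at day 2 was 0.53 ± 0.17 (adjusted p = 0.069, and 0.025 with the replicate block), opposite in sign to that of the reference probe, and the rise in siControl was 0.37 (adjusted p = 0.087, and 0.036 with the block).

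Akt2, the kinase that carries most insulin-stimulated glucose uptake in muscle, rose with differentiation on all 3 of its probes in both siControl and siBach1-2 cells. The reference probe, A_55_P2066518, read 4.32, 4.27 and 4.56 in siControl at day 0 and 5.68, 5.63 and 5.66 at day 2. In siBach1-2 it read 4.55, 4.33 and 4.74 at day 0 and 5.42, 5.44 and 5.53 at day 2. Every day 2 array exceeded every day 0 array, by 1.28 ± 0.11 (SE) in siControl (adjusted p = 5.8e-06) and by 0.92 ± 0.11 in siBach1-2 (adjusted p = 5.1e-05), or 2.42-fold and 1.90-fold. The order of its condition means was siControl day 0, siBach1-2 day 0, siBach1-2 day 2 and siControl day 2. Neighbours within a day were not called different. At day 2 the 3 siBach1-2 arrays were below the 3 siControl arrays by 0.19 on average (-0.19, adjusted p = 0.31), and at day 0 the arrays overlapped (0.16, adjusted p = 0.37). The difference between the silencing effects of the days was -0.35, with a 95% interval from -0.71 to 0.00 (adjusted p = 0.23).

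The other Akt2 probes also rose. A_51_P408044 went from 1.25 ± 0.04 to 2.20 ± 0.11 (SD, n = 3) in siControl and from 1.27 ± 0.04 to 2.21 ± 0.05 in siBach1-2, rises of 0.95 and 0.94 (adjusted p = 3.7e-06 for each). Its silencing effects were 0.02 at day 0 and 0.01 at day 2, with 95% intervals from -0.16 to 0.19 and from -0.16 to 0.18, so that a change of Akt2 by silencing larger than 0.19 on this scale lay outside the intervals of this probe. A_55_P2066523 rose by 0.40 in siControl (adjusted p = 0.0071) and by 0.51 in siBach1-2 (adjusted p = 0.0015). Its siBach1-2 arrays of day 2 lay above those of siControl, by 0.09 (adjusted p = 0.62), where those of the reference probe lay below.

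**Figure D2:**
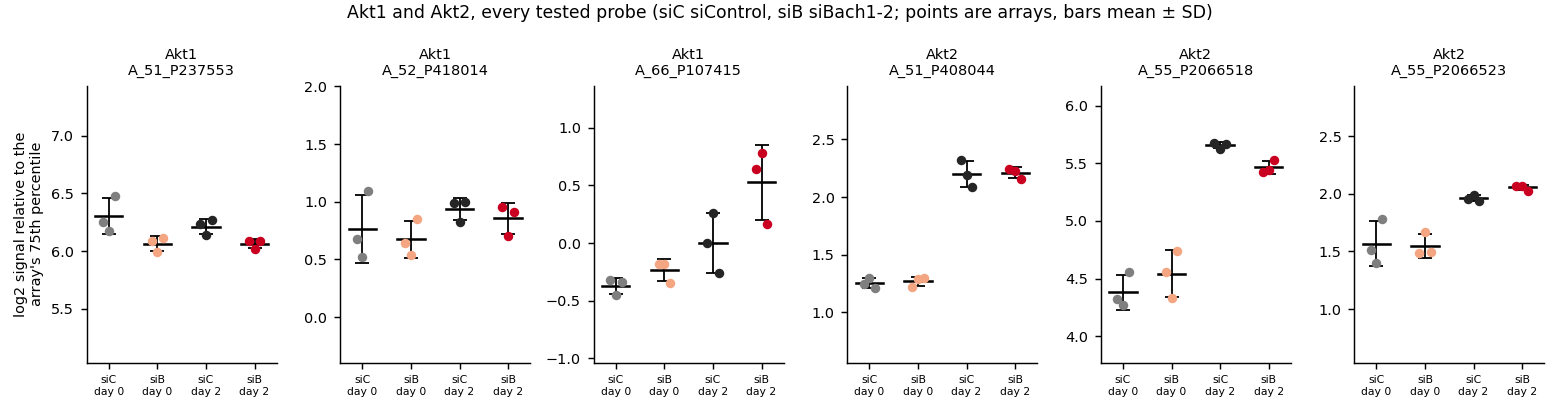
Signal in log2 units from the 75th percentile of each array (vertical axis) of every tested probe of Akt1 and Akt2 in the 4 conditions (horizontal axis, siC siControl, siB siBach1-2). Points are arrays and bars the mean ± SD of 3 arrays. The 3 Akt2 probes were higher on every day 2 array than on any day 0 array of the same siRNA, while Akt1 probe A_51_P237553 stayed between 5.99 and 6.48.

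Mtor encodes the kinase of both mTOR complexes and was read by 2 probes that disagreed in sign. The reference probe, A_51_P282179, for NM_020009, read -0.29, -0.22 and -0.14 in siControl and -0.15, -0.23 and -0.18 in siBach1-2 at day 0. Day 2 values were -0.11, 0.02 and 0.05 in siControl and 0.18, 0.46 and 0.32 in siBach1-2, so that the siBach1-2 arrays of day 2 stood above all others. Silencing raised it at day 2 by 0.34 ± 0.09 (SE), or 1.26-fold (adjusted p = 0.035, and 0.018 with the replicate block), and not detectably at day 0 (0.03, 95% interval from -0.17 to 0.23). The rise with day was called in siBach1-2, 0.51 ± 0.09 (adjusted p = 0.00062), and not in siControl, 0.20 ± 0.09 (adjusted p = 0.077, and 0.044 with the block), while the difference between these was 0.31 (adjusted p = 0.19). The call at day 2 lay close to the threshold, with an effect of 0.27 to 0.41 in the fits that left out 1 array. The call was lost without siControl day 2 replicate 1, 2 or 3 (adjusted p = 0.12, 0.059 and 0.058) and without siBach1-2 day 2 replicate 2 or 3 (0.11 and 0.083). It was also lost without siControl day 0 replicate 1 or 2 (0.051 and 0.054) and without siBach1-2 day 0 replicate 2 (0.051).

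The second Mtor probe, A_52_P67643, was designed on the cDNA clone AK036004 and fell with day. It read -0.29, -0.28 and -0.44 in siControl at day 0 and -0.88, -1.09 and -0.78 at day 2, a difference of -0.58 ± 0.12 (adjusted p = 0.0026). In siBach1-2 it read -0.46, -0.32 and -0.09 at day 0 and -1.24, -0.99 and -1.24 at day 2, a difference of -0.87 ± 0.12 (adjusted p = 0.00015). The day 2 arrays were below the day 0 arrays in each case. At day 2 its silencing effect was -0.24 (adjusted p = 0.25), opposite in sign to the effect on the reference probe. A direction for Mtor therefore holds for a probe, not for the gene.

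Rptor, the scaffold that brings substrates to mTORC1, showed the smallest spread between replicates among the reference probes of the 8 genes at day 0 in siControl. Probe A_52_P229320, for NM_028898, read 3.48, 3.43 and 3.42 in siControl and 3.72, 3.71 and 3.65 in siBach1-2 at day 0. Day 2 values were 4.09, 4.14 and 4.11 in siControl and 4.12, 4.04 and 3.98 in siBach1-2. Silenced cells were thus above controls on every array at day 0, whereas the arrays of day 2 overlapped. The silencing effect was 0.25 ± 0.07 (SE), or 1.19-fold, at day 0 (adjusted p = 0.029) and -0.07 at day 2 (adjusted p = 0.58, turning to 0.02 after quantile normalization). The rise with day was 0.67 ± 0.07 in siControl (adjusted p = 1.4e-05) and 0.35 ± 0.07 in siBach1-2 (adjusted p = 0.0011). The difference between these, -0.32 ± 0.10, was not called (adjusted p = 0.087) and passed with the replicate block (adjusted p = 0.04). The day 0 call did not hold after quantile normalization (0.21, adjusted p = 0.099) or normexp background correction (0.23, adjusted p = 0.06). It was also lost without siControl day 0 replicate 1, 2 or 3 (adjusted p = 0.065, 0.093 and 0.076) and without siBach1-2 day 0 replicate 1 or 2 (0.081 and 0.078).

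The other Rptor probes were designed on cDNA clones. A_55_P2285501, on AK137878, ranged from -3.69 to -1.71 and was not called, its largest difference being a rise with day of 0.83 ± 0.35 in siControl (adjusted p = 0.071, and 0.01 with the replicate block). A_51_P131480 and A_52_P545472 were well above background on none of the 12 arrays.

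Rictor, which defines mTORC2, rose slightly with day on its reference probe, A_52_P145412. This probe read -0.89, -0.73 and -0.77 in siControl at day 0 and -0.59, -0.39 and -0.56 at day 2. In siBach1-2 it read -0.88, -1.03 and -0.91 at day 0 and -0.42, -0.68 and -0.40 at day 2. Day 2 arrays were above day 0 arrays in both, by 0.29 ± 0.10 (SE, adjusted p = 0.034) and 0.44 ± 0.10 (adjusted p = 0.0034). The siControl rise was lost after quantile normalization (adjusted p = 0.077) and without siControl day 0 replicate 1 or 3 (0.12 and 0.059) or siControl day 2 replicate 2 or 3 (0.12 and 0.05). The arrays of siBach1-2 and siControl overlapped on both days, with silencing effects of -0.14 (95% interval from -0.37 to 0.08) and 0.01 (from -0.21 to 0.24). A_51_P218948, on the same transcript NM_030168, and A_55_P2729928, on the clone AK036492, were dimmer, between -3.08 and -1.56, and called in no comparison. The 3 untested Rictor probes, A_52_P175316, A_52_P550602 and A_55_P2732201, were well above background on at most 2 arrays of any condition.

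Eif4ebp1, which encodes the translation repressor 4E-BP1, was lower in silenced cells at day 2. Its probe, A_51_P330428, read 5.70, 5.82 and 5.73 in siControl and 5.52, 5.64 and 5.74 in siBach1-2 at day 0, which overlapped. Signals of day 2 were 5.76, 6.36 and 5.79 in siControl and 5.26, 5.19 and 5.40 in siBach1-2. The siBach1-2 arrays of day 2 were below all 9 other arrays, while replicate 2 of siControl stood above the rest. The silencing effect at day 2 was -0.69 ± 0.15 (SE), 0.62-fold of siControl (adjusted p = 0.015), and it was -0.83 on the slide of replicates 1 and 2 and -0.40 on the slide of replicate 3. It was no longer called without siBach1-2 day 2 replicate 1 or 2 (adjusted p = 0.055 and 0.053). At day 0 the effect was -0.12 (95% interval from -0.45 to 0.21). The changes with day were 0.22 in siControl (adjusted p = 0.24) and -0.35 in siBach1-2 (adjusted p = 0.068), and the difference between the silencing effects of the days, -0.57 ± 0.21, was not called (adjusted p = 0.15).

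**Figure D3:**
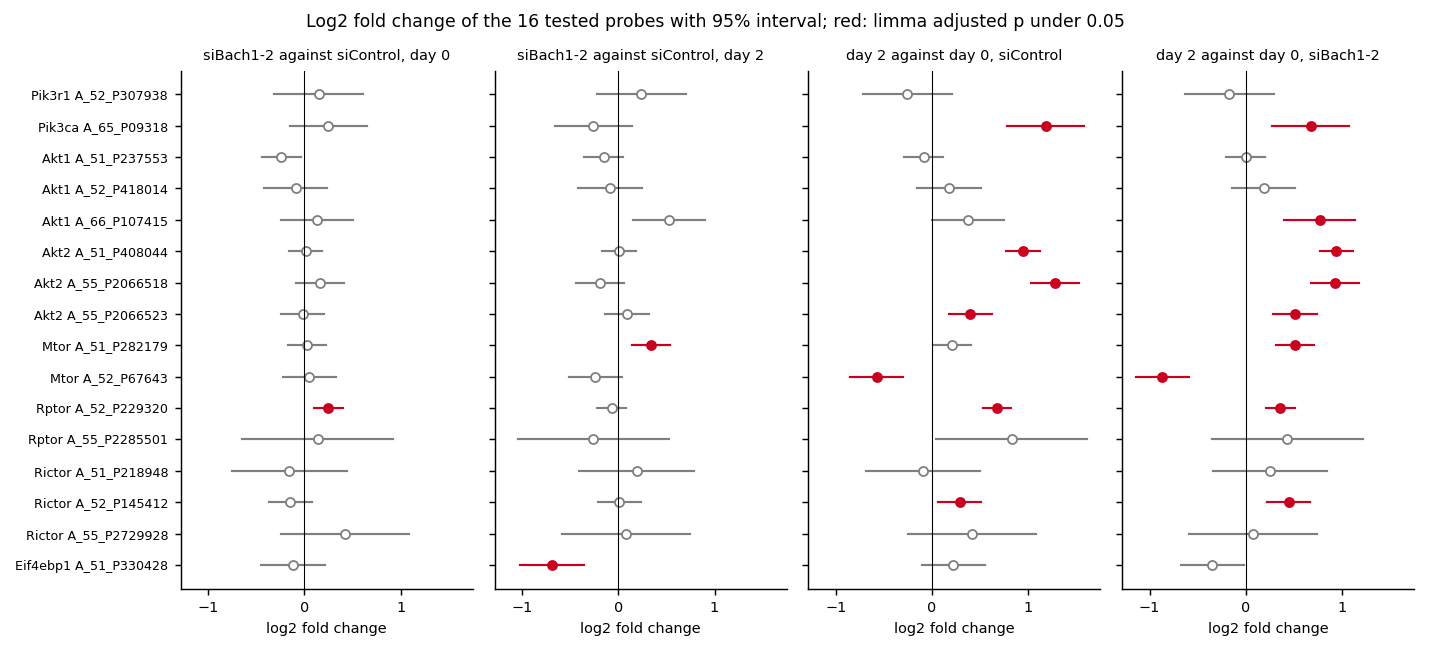
Log2 fold change (horizontal axis) with its 95% interval for the 16 tested probes of the 8 genes (rows) in the silencing comparison of each day and in the change with day of each siRNA. Filled red points are called by limma at an adjusted p under 0.05. Calls were 1 and 2 for silencing, against 17.1% and 12% of all tested probes, and 7 and 9 for differentiation, against 53.4% and 56.1%.

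Counted over the 16 tested probes, silencing at day 0 called 1 (6.25%), which was higher, against 17.1% of all tested probes in either direction, 8.8% higher and 8.32% lower. At day 2 it called 1 higher and 1 lower (12.5%), against 12% in either direction, 5.75% higher and 6.26% lower. With the replicate number as a block the count at day 0 was 2, 1 higher and 1 lower, and after quantile normalization or normexp the single call at day 0 was the lower level of Akt1 in place of Rptor. At day 2 normexp gave 2 higher and 1 lower. With a fold change of at least 2 in addition, limma called no member probe on either day, against 2.79% and 2.17% of all probes. At an unadjusted limma p under 0.05 the counts were 2 and 3 of 16. No share of all probes was taken at an unadjusted p, with a block or under another normalization. An excess of members cannot be read from those counts. The arrays of the 2 siRNAs did not overlap for 3 of 16 probes at day 0, against 37.3% of all probes, and for 5 of 16 at day 2, against 32.8%. Where a share of all probes is given, that of members was below or near it. The median silencing effect over the 8 reference probes was 0.09 at day 0 and -0.11 at day 2, and over all tested probes 0.09 and -0.01.

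Differentiation called 6 member probes higher and 1 lower in siControl, against 53.4% of all tested probes in either direction, 24.6% higher and 28.7% lower. In siBach1-2 it called 8 higher and 1 lower, against 56.1% in either direction, 23.8% higher and 32.3% lower. By probe the member calls thus lay mostly on the higher side, but probes of 1 gene were counted apart. The higher calls came from 4 genes in siControl and 6 in siBach1-2, and every Akt2 probe was among them. The lower call in each was the second Mtor probe, while the reference probe of Mtor was among the higher calls in siBach1-2. With the replicate block the siControl count was 11, with no share of all probes taken. At a fold change of at least 2, the probes of Akt2 (A_55_P2066518) and Pik3ca were called in siControl, against 20% of all probes. None was called by limma in siBach1-2, against 20.5%. There 10 of 16 had an unadjusted limma p under 0.05, again with no share of all probes taken. The arrays of the 2 days did not overlap for 9 of 16 probes in siControl, against 61.9%, and for 10 of 16 in siBach1-2, against 61.3%. The median change over the 8 reference probes was 0.25 in siControl and 0.40 in siBach1-2, and over all tested probes 0.00 and -0.07.

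The silencing effect differed between days for 0 of 16 member probes by limma, against 4.59% of all tested probes, and 3 of 16 had an unadjusted p under 0.05. With the replicate block 1 member probe, that of Rptor, was called. No share of all probes was taken for the unadjusted count or for the block.

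The genes around these 8 were described through a list of 92 pathway genes in 8 roles, of which 90 were on the array and 85 were tested, 77 of them beside the members. Each was represented by its reference probe, which by its choice is bright, so the shares below are not those of like probes. Silencing at day 0 called 15 of the 77 genes higher and 9 lower (31.2%, against 17.1% of all tested probes), with a median of 0.15. Over all 85 genes the day 0 split was 16 higher and 9 lower, and it became 5 and 8 by the methods' t-test, 5 and 7 with only the arrays compared and 6 and 6 without the filter on dim probes. At day 2 it called 8 higher and 8 lower (20.8%, against 12%), with a median of 0.04. Differentiation called 28 higher and 20 lower in siControl and 23 higher and 22 lower in siBach1-2 (62.3% and 58.4%, against 53.4% and 56.1%), with medians of 0.07 and 0.01. The silencing effect differed between days for 6 of 77 genes, 3 upward and 3 downward (7.79%, against 4.59% of all tested probes). Over all 85 genes the siBach1-2 split with day was 28 higher and 22 lower, and 39 and 17 after quantile normalization, and the split of differences between days was 3 and 1 after it. The counts by role below stand beside the same shares of all tested probes, 17.1% and 12% for silencing and 53.4% and 56.1% with day. No role was tested as a set.

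Upstream of Akt, of 6 other class I PI3K subunit genes 1 rose with silencing at day 0 and 1 at day 2, and with day 1 rose and 2 fell in siControl. Pik3r2, the p85 beta subunit, rose by 0.38 with silencing at day 0 (adjusted p = 0.045) and by 0.66 with day in siControl (adjusted p = 0.0006). Pik3cd, the leukocyte-enriched p110 delta, fell by 1.71 with day in siControl (adjusted p = 1.3e-05). Pik3r5, a regulatory subunit of p110 gamma, was well above background on 3 siControl arrays at day 0, on none at day 2 and on 2 siBach1-2 arrays at day 2. It was called higher in siControl at day 0 than at day 2 (adjusted p = 0.0053) and higher in siBach1-2 than in siControl at day 2 (adjusted p = 0.026). Each fold was taken against the lowest signals well above background on the siControl arrays of day 2, at about 1.6. The siBach1-2 mean includes an array not well above background, so this fold is an estimate and not a minimum.

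Of 6 lipid phosphatases, which act on membrane lipids of the kind that recruits Akt, 5 rose with day in siControl and 1 fell, with a median of 1.11. Inpp4b, a 4-phosphatase, went from -3.77, -4.72 and -5.67, of which 1 array was well above background, to 1.52, 1.11 and 1.21, and all 3 of its tested probes were called higher (adjusted p = 3.5e-06, 2.6e-08 and 0.00033), with no fold given because day 0 was mostly at background. Inpp4a rose by 1.14, Inpp5k by 1.12 and Inppl1, which encodes SHIP2, by 1.10 (adjusted p = 3.6e-06, 2.1e-05 and 6.1e-06). In siBach1-2 cells 4 of the 6 passed the test, each higher. Silencing raised Inpp4a, by 0.35 at day 0 (adjusted p = 0.03) and by 0.60 at day 2 (adjusted p = 0.0034), on 1 of its 4 tested probes.

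Of 7 direct regulator genes of Akt, silencing called 1 higher and 2 lower at day 0, and at day 2 the call was 1 lower. The pseudokinase gene Trib2 was lower on both days, by -0.84 and -0.77 (adjusted p = 0.0078 and 0.018). Its relative Trib1 was higher at day 0, by 0.84 (adjusted p = 0.0023), on 1 of 3 probes. Phlpp2, a phosphatase of Akt, was lower at day 0 by -0.47 (adjusted p = 0.02). With day in siControl, 1 of these 7 genes rose and 3 fell. Trib1, Trib2 and Phlpp2 were lower at day 2 than at day 0, by -1.11, -0.71 and -0.60 (adjusted p = 6e-05, 0.0049 and 0.0013), Trib1 on 1 of 3 probes. Pdpk1, which encodes the Akt-activating kinase PDK1, rose with day by 0.64 in siControl and by 0.66 in siBach1-2 (adjusted p = 0.0005 and 0.0004), and its silencing effects, -0.27 and -0.26, passed with the replicate block (adjusted p = 0.017 and 0.026) and not without it (0.11 and 0.15), while its other tested probe was lower at day 0 without a block (-0.49, adjusted p = 0.0083).

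Among 5 Akt substrate genes, Gsk3a and Gsk3b, the glycogen synthase kinase genes, had silencing effects of opposite sign at day 0 and of the same sign at day 2. Gsk3a read 4.06, 4.18 and 4.14 in siControl and 2.84, 2.75 and 2.62 in siBach1-2 at day 0, and 3.75, 3.62 and 4.02 against 3.02, 3.05 and 3.13 at day 2. Its siBach1-2 arrays were lower throughout, by -1.39 and -0.73 (adjusted p = 3.1e-05 and 0.0028), and its other tested probe was called lower on both days as well. Gsk3b was higher with silencing at day 0, by 0.35 (adjusted p = 0.02), on 1 of its 3 probes, and rose by 0.60 with day in siControl (adjusted p = 0.00017). At day 2 the silencing effect on Gsk3b was -0.21 (adjusted p = 0.15). With day in siControl Gsk3a was lower by -0.33 (adjusted p = 0.025), on 1 of its 2 tested probes. Of the Rab GTPase-activating proteins that Akt phosphorylates, Tbc1d1 rose with day by 0.77 in siControl (adjusted p = 2.5e-05), on 1 of 3 probes, and Tbc1d4 was higher with silencing at day 2 by 0.60 (adjusted p = 0.039), on 1 of 3 probes.

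Among 9 other genes of mTOR complex subunits and their assembly, 1 rose and 4 fell with day in siControl, and 2 rose and 5 fell in siBach1-2, while Rptor and Rictor rose. Deptor, an inhibitory subunit of both complexes, rose by 0.71 in siControl (adjusted p = 0.00068). Prr5l, which encodes an mTORC2-associated protein, fell by 1.87 (adjusted p = 3.2e-05), and the assembly factors Tti1 and Telo2 fell by 0.47 and 0.43 (adjusted p = 0.0015 and 0.016), Telo2 on 1 of 3 probes. Silencing called 1 higher and 1 lower on each day. These were Akt1s1, which encodes the mTORC1 inhibitor PRAS40 (0.43, adjusted p = 0.019), and Mapkap1, the mTORC2 subunit SIN1 (-0.35, adjusted p = 0.037), at day 0, and Prr5l (0.80, adjusted p = 0.036) and Prr5 (-0.46, adjusted p = 0.04) at day 2. Of these, Akt1s1 alone had the call on a second probe. The other tested probe of Prr5 was called lower at day 0 (-0.56, adjusted p = 0.0094), where its reference probe was not called (-0.40, adjusted p = 0.054).

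Of 7 genes of the TSC complex and Rheb, the GTPase that activates mTORC1, silencing called 2 higher at day 0, and 1 higher and 1 lower at day 2. Tsc1, a subunit of the inhibitory complex, was higher at day 0 by 0.58 (adjusted p = 0.0033), and Rhebl1, a relative of Rheb, by 0.82 (adjusted p = 0.01). Ddit4 and Ddit4l encode the related mTORC1 inhibitors REDD1 and REDD2 and moved in opposite directions at day 2. Ddit4l was higher by 0.97 (adjusted p = 0.0018), at -0.78, -0.87 and -0.44 in siBach1-2 against -1.45, -1.86 and -1.71 in siControl. Ddit4 was lower by -0.41 (adjusted p = 0.032). With day in siControl, Tsc1, Tsc2 and Tbc1d7, which make up the TSC complex, rose by 0.48, 0.38 and 0.29 (adjusted p = 0.0021, 0.015 and 0.014), Tsc2 on 1 of 2 probes. Ddit4 was lower at day 2 than at day 0 in siControl, by -0.37 (adjusted p = 0.012).

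The amino acid arm, the Rag GTPases and their regulators at the lysosome, held the most genes, 24. Silencing called 7 higher and 5 lower at day 0, and 3 higher and 3 lower at day 2. The Rag genes Rragc and Rragd were lower at day 0, by -0.78 and -0.79 (adjusted p = 0.0011 and 0.00037). At day 2 Rragc was lower by -0.44 (adjusted p = 0.029), on 1 of 2 probes. Rragd was not called at day 2 (-0.24, adjusted p = 0.13). Lamtor5, a subunit of the Ragulator that anchors Rag GTPases, was lower on both days, by -0.66 and -0.80 (adjusted p = 0.00032 and 0.00027). Fnip1, a partner of folliculin, was higher on both days, by 0.81 and 0.49 (adjusted p = 0.0013 and 0.025), and Flcn, folliculin itself, was higher at day 0 by 0.74 (adjusted p = 0.011), on 1 of 2 probes. With day in siControl 11 rose and 4 fell, led by Gatsl2 (1.36), Flcn (1.28), Sesn3 (0.84) and Lamtor2 (0.74), with adjusted p from 1e-06 to 0.00013.

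Among 13 other mTORC1 output genes, silencing called 1 higher at day 0 and 1 lower at day 2. Ulk1, the autophagy kinase that mTORC1 restrains, was higher at day 0 by 0.67 (adjusted p = 0.0032) on both of its probes. Eif4e, whose protein is held by 4E-BP1, was lower at day 2 by -0.33 (adjusted p = 0.02), on 1 of 3 probes, at 2.60, 2.61 and 2.75 against 2.98 ± 0.05 (SD, n = 3) in siControl. With day in siControl 4 rose and 4 fell. Pdcd4, a translation inhibitor that S6 kinase marks for degradation, rose by 1.00 (adjusted p = 0.00018), Ulk1 by 0.72 (adjusted p = 0.00036, on 1 of 2 probes) and Lpin1 by 0.73 (adjusted p = 0.022), and Eif4e fell by 0.78 (adjusted p = 1e-05).

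**Figure D4:**
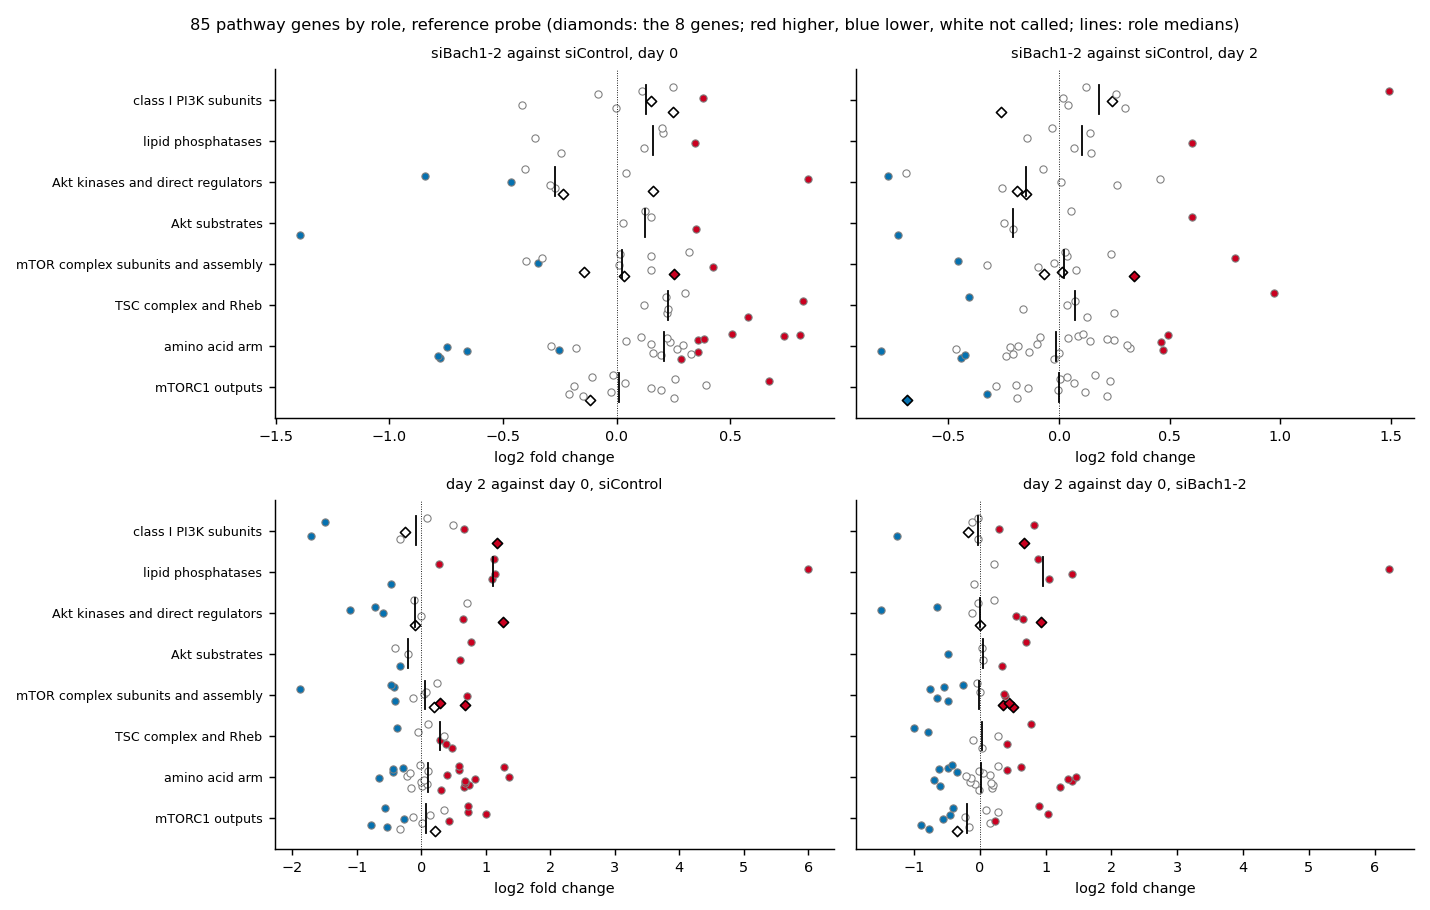
Log2 fold change (horizontal axis) of the reference probe of 85 pathway genes, grouped by role (rows), in the silencing comparison of each day and in the change with day of each siRNA. Diamonds are the 8 genes and circles the other 77, red and blue are limma calls of higher and lower, and black lines are role medians. The 8 genes lay within the range of the other genes of the list for silencing, and lipid phosphatases had the highest median with day, 1.11 in siControl.

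The genes whose pattern over the 12 arrays was most like that of Akt2 and Pik3ca, the members with the largest range of condition means, were found by the root mean square difference of log2 signals after centring each probe. For Akt2 these included Klf3 (0.077) and Fam195b (0.088), and for Pik3ca they were Nsmce2 (0.167), Arhgef2 (0.169) and Ulk3 (0.172).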

How the data were processed

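Signals came from 12 one-colour mouse arrays (SurePrint G3). The authors scanned the arrays and deposited Feature Extraction output (9.1 per the labels, 10.7.3.1 per the file headers), whose processed signal is a background-subtracted intensity, with a table of log2 normalized values; these log2 values, as deposited, equal log2 intensity minus the array's 75th percentile and the probe's median, with a largest difference of 0.00034. Here log2 processed signals were used, with 76 to 110 outlier spots per array and all control spots removed, repeated spots averaged and the 75th percentile subtracted (signals of 326 to 534 per array at that percentile). No spot was saturated. The number of arrays, not counting error, limits the precision. A probe was tested if 1 or more conditions had it well above background on each of their 3 arrays. limma 3.58.1 in R 4.3.3 fitted 4 condition means to all 12 arrays, with Benjamini-Hochberg adjustment over 29664 probes. On simulated data it recovered 67% of 2-fold changes in the day 2 silencing comparison. Those data had 200 changed probes and a spread drawn separately for each array, unlike the real arrays, so this share need not hold for them.

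Members and lists were chosen with earlier results of these data known. All member probes are given. Other genes are named, by reference probe, as the up to 4 called genes per role with the largest change in silencing (or its difference between days) and in siControl day 2 against day 0. The cultures behind replicates are not stated, so p-values measure the spread between these samples. Same-numbered samples deviated together (r from 0.142 to 0.595 in 18 pairs, from -0.442 to 0.264 otherwise), so replicate numbers, which also follow the 2 slides, were taken as pairs. The main fit, which gave the calls and the figures, had no block and so left this pairing out. A block was fitted as an alternative. Each condition kept its own position across slides, so position and condition cannot be told apart. The other alternatives were quantile normalization, normexp, the deposited normalized values, no filter, slide as a block, only the arrays compared, the methods' t-test, a fold minimum of 2 and leaving out each array. A listed pathway gene and a gene of similar pattern are not reported here.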

Additional observations from a re-analysis of the deposited data

Results flagged for a closer look

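The silencing effect differed between days for 4 genes named from the pathway list, by the test of the difference in limma, and for none of the 8 genes in the same fit. Gsk3a fell less at day 2 (-0.73 against -1.39), a difference of 0.66 (adjusted p = 0.04), which stayed called only without siBach1-2 day 0 replicate 1 or siControl day 2 replicate 3 and reached an adjusted p of up to 0.095 in the other fits; its other tested probe gave 0.90 (adjusted p = 0.051). Rragd was lower at day 0 (-0.79) and at day 2 stood at -0.24, a difference of 0.55 (adjusted p = 0.046) that was lost without any 1 array (adjusted p from 0.057 to 0.1). The other 2 tested probes of Rragd were not called for this difference. Gsk3b was higher at day 0 (0.35) and stood at -0.21 at day 2, a difference of -0.56 (adjusted p = 0.033), called in 3 of the 12 fits with an array left out, those without siControl day 2 replicate 2, siBach1-2 day 0 replicate 2 or siControl day 0 replicate 3. The other tested probes of Gsk3b gave -0.33 and -0.47 and were not called (adjusted p = 0.21 and 0.083). Ddit4 stood at 0.22 at day 0 and was lower at day 2 (-0.41), a difference of -0.63 (adjusted p = 0.043), called in 1 of the 12 fits, that without siBach1-2 day 2 replicate 3. All 4 differences were called with the replicate block (adjusted p from 0.015 to 0.03).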

How the results depend on the processing

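Refits of single member probes under settings other than leaving out an array kept their side of the threshold, with no called value turning, in 634 cases, gained a call in 20 and lost one in 33. In 1 further case the sign turned and the value passed the threshold, that of Akt1 (A_51_P237553) in siBach1-2 with day, at 0.36 after quantile normalization. In refits that left out an array, 933 kept their side, 8 gained and 19 lost a call. The sign changed with neither value past the threshold in 54 refits over both kinds. The 3 silencing calls of members, Rptor at day 0 and Mtor and Eif4ebp1 at day 2, were lost without the filter on dim probes (adjusted p = 0.19, 0.17 and 0.065) and with only the arrays compared in the fit (0.085, 0.12 and 0.076), so that the member counts were 0 on both days, as they were with a fold minimum of 2. That minimum left 2 member calls with day in siControl and 0 in siBach1-2. With the replicate block, the numbers being paired, the member counts were 2 for silencing at day 0, 3 at day 2, 11 with day in siControl and 1 for the difference between days, and with the slide as a block 2, 3, 10 and 1. The replicate block changed no member call other than those given with the results. The methods' t-test on the same values called 2, 5, 8 and 9 member probes at the usual unadjusted threshold for silencing at day 0 and day 2 and with day in siControl and siBach1-2, and 1, 0, 5 and 9 after Benjamini-Hochberg. Leaving out 1 array gave member counts of 0 to 1, 0 to 2, 6 to 8 and 9 to 10 in that order, and 0 for the difference between days (3 at an unadjusted p under 0.05 with all arrays). For the 85 pathway genes, with 25, 18, 52 and 50 calls in that order and 6 for the difference between days, leaving out 1 array gave 13 to 26, 9 to 19, 46 to 53, 44 to 50 and 2 to 5. At day 0 silencing called 12 of them without the filter, 12 with only the arrays compared, 13 by the methods' t-test, 1 with the fold minimum and 38 with slide as a block. At day 2 it called 5, 7, 4, 1 and 28 under the same settings. With day the fold minimum left 13 calls in siControl and 11 in siBach1-2. The difference between days gave 0 by limma without the filter or with the fold minimum and 18 with the replicate block (7 higher and 11 lower) or the slide block. Shares of all probes were taken only for the main fit, with and without the fold minimum. The other counts therefore show how calls moved, not whether members exceeded all probes. The cause of these changes was not tested.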
